A study of Mus musculus with 2 samples.

Results

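The mitotic G2/M genes are 51 genes whose products are made or used as a cell moves from G2 phase through division. They were taken as the rows of the deposited tables whose gene symbol matched a named list, a rule that uses no measured value, and all 51 were found among the 31053 genes of the tables. Single cells came from bone marrow of C57BL/6J mice aged 6 to 8 weeks and were sorted as LSK cells, a fraction that lacks lineage surface proteins, carries Sca1 and c-Kit, and includes blood stem cells as well as multipotent progenitors. One library came from control animals and the other from animals 15 days after 5 Gy of total body irradiation. With 1 library per group there is no replicate error and no test; how many animals went into each library is not stated, and all intervals below are 95% intervals that cover counting error only.

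Division is driven by the kinase Cdk1, which is active when bound to a B-type cyclin and a small Cks subunit. Aurora kinases and the chromosomal passenger proteins then act on chromosomes and spindle, kinetochore proteins join chromosomes to microtubules, and a checkpoint holds back the anaphase-promoting complex until all chromosomes are attached. Many of these genes are switched on together late in the cycle, through promoter elements read by the B-Myb, MuvB and FoxM1 proteins. In bone marrow, most long-term stem cells are out of cycle, while the progenitors below them divide often.

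Values are unique molecular identifiers (UMIs), single counted RNA molecules read near the 3′ end of the transcript, given as UMIs per 1000000 UMIs of the library (CPM). The control library held 7686 barcodes and 139274656 UMIs, the irradiated library 5596 barcodes and 165119247 UMIs. After filters on depth and mitochondrial share, 7190 control cells remained, at a median depth of 16084.5 UMIs, and 5128 irradiated cells, at 29671 UMIs. For values per cell, each cell was thinned at random to 5000 UMIs, which left out 66 control and 59 irradiated cells that were shallower. The libraries shared 16 cell barcodes. The sort genes were present in both libraries: Ly6a, which encodes Sca1, stood at 156 CPM in control cells against 217 CPM after irradiation, and Kit at 132 and 73.5 CPM. Among the genes of lineage antigens, Cd3e was at or below 0.0579 CPM and Ly6g at or below 0.239 CPM in both libraries, while Itgam stood at 10.3 and 6.06 CPM.

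The promoters are shown first because many genes of this kind are switched on together late in the cycle. A RefSeq promoter entry, 250 bases before to 50 bases after the annotated start (GRCm38.p6), was matched for 45 of the 51 genes. Only the first entry of each gene symbol was searched, and all promoters below means the 27025 first entries. The letters TTTGAA or TTCGAA, the core of the cell cycle homology region (CHR) that the MuvB proteins read, stood on either strand in 34 of 45 promoters (75.6%), and in 19.4% of all 27025 promoters. The CCAAT box, the letters read by the NF-Y factor, stood on either strand in 35 of 45 (77.8%), against 37.9% of all promoters. Both together stood in 29 of 45, against 7.70% of all promoters. TATAAA was present in 2 of 45, below the 14.2% of all promoters. From 60 bases before the start to the end of the window, 28 of 45 held the CHR letters, against 5.86% of all promoters. The lines below give the 150 bases before the start for 7 genes on which the results turn, read 5′ to 3′ on the gene's strand, with the CHR letters (TTTGAA, its reverse complement TTCAAA, or TTCGAA) and the CCAAT box (CCAAT or its reverse complement ATTGG) in capitals. The Cks2 stretch holds the CCAAT box on both strands and no CHR letters. A match is only a match of letters, and no binding was measured.
Cdk1 (chr10:69352913-69353062, minus strand): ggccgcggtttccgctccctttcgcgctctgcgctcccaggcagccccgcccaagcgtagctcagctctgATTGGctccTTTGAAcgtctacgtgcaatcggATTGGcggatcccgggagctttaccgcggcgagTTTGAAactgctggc
Cdc20 (chr4:118437344-118437493, minus strand): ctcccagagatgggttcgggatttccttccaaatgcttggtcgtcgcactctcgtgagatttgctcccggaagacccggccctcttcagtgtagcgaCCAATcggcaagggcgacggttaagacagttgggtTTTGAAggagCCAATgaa
Mki67 (chr7:135716380-135716529, minus strand): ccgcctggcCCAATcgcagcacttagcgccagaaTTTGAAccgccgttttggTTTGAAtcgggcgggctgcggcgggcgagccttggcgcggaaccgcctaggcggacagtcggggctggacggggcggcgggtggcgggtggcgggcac
Ckap2l (chr2:129297213-129297362, minus strand): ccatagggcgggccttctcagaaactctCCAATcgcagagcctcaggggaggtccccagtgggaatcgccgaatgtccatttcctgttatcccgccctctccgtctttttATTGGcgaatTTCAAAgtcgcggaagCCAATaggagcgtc
Top2a (chr11:99024190-99024339, minus strand): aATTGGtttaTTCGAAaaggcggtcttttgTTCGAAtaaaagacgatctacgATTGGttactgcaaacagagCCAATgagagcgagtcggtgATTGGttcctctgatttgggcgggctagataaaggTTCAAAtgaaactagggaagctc
Gas2l3 (chr10:89443968-89444117, minus strand): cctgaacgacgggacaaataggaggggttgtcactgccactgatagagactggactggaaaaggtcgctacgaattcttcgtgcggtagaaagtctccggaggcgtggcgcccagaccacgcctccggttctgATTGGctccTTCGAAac
Cks2 (chr13:51645082-51645231, plus strand): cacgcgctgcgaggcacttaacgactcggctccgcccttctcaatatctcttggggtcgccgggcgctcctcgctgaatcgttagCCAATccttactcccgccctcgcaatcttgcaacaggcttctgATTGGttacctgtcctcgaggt

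Across the whole LSK fraction, the mitotic genes stood higher in the irradiated library as a group, by a modest amount. Summed over the 51 genes, they took 5664 CPM in control cells against 6924 CPM after irradiation, a log2 ratio of 0.29 (0.29 to 0.29). When every cell counted equally, rather than by its depth, the same sum was 4358 and 6224 CPM, a log2 ratio of 0.51. A gene was counted as higher at a log2 ratio of at least 0.32 (25% higher) and as lower at -0.32 or below (20% lower). By this size rule 25 of the 51 genes were higher in irradiated cells, 3 were lower and 23 lay between, while 17.2% of the 9035 genes at a mean of at least 5 CPM were higher and 28.3% lower. The members' median log2 ratio was 0.30, beside -0.06 over all these genes. With each cell equal, 37 were higher and 0 lower at a median of 0.51, beside 17.9% higher and 27.2% lower over all genes. None of the 51 reached 2-fold in pooled UMIs, and Gtse1 alone did with each cell equal. The count depends on a limit on mitochondrial UMIs: among cells with at most 5% of them, 11 of the 51 genes were higher and the summed log2 ratio was 0.18. No share of all genes is given for those cells, so whether that count exceeds their background cannot be told.

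Some of these genes serve outside mitosis too. Hmgb2, a DNA-bending chromatin protein, gave the largest part of the sum, and without it the log2 ratio of the sum was 0.26. Without 10 genes also used in interphase (Hmgb2, Cbx5, Tmpo, Anp32e, Cks1b, Tubb4b, Ckap5, Lbr, Rangap1 and Smc4), the other 41 took 2666 CPM in control cells against 3226 CPM after irradiation, a log2 ratio of 0.28, or 0.56 with each cell equal. A list of 38 S phase genes, which copy the DNA before mitosis, moved less: 3232 and 3629 CPM, a log2 ratio of 0.17, or 0.30 with each cell equal. Depth moved with the libraries as the medians above show, and mitochondrial UMIs were 4.38% of the median control cell against 3.24% of the median irradiated cell; the part of either in these ratios was not tested.

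**Figure D1:**
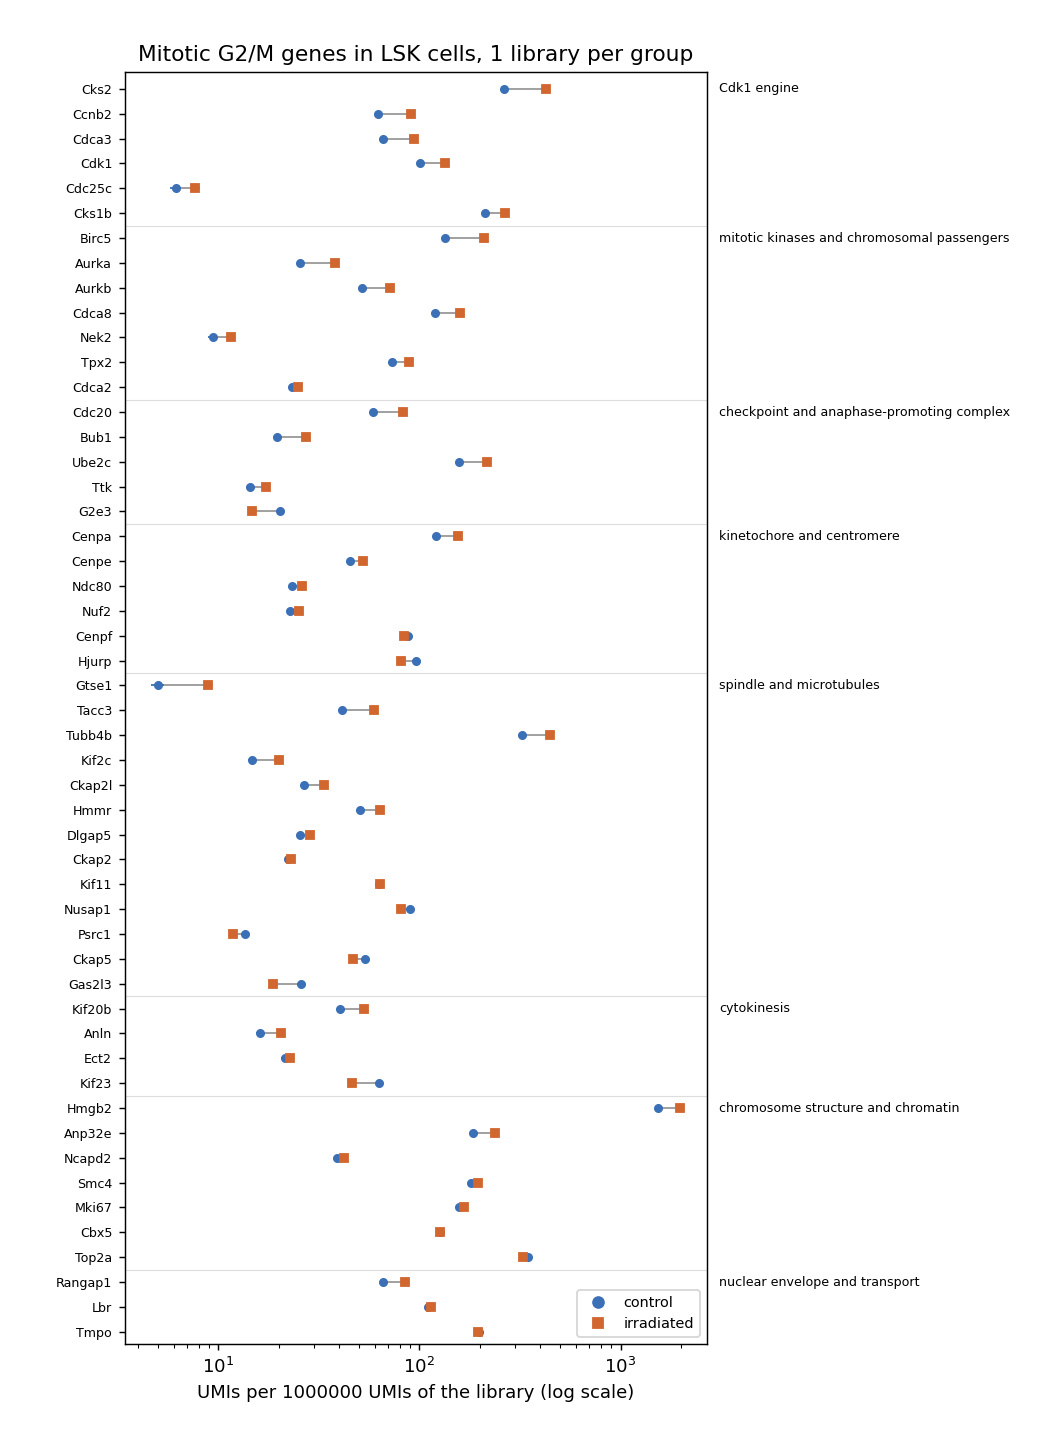
Level of each of the 51 genes in UMIs per 1000000 UMIs of the library (log axis), grouped by role, for control (circles) and irradiated cells (squares), with 95% counting intervals that are mostly narrower than the symbols. All 6 genes of the Cdk1 engine lie to the right in irradiated cells, while G2e3, Gas2l3 and Kif23 lie to the left.

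The engine of mitotic entry was the single role of the 8 in which every gene, 6 of 6, was higher in irradiated cells by the size rule in pooled UMIs; with each cell equal, the 7 kinases and passengers below were all higher too. Cks2, the small subunit that docks Cdk1 to its phosphorylated targets (chr13:51645232-51650660, plus strand, GRCm38), stood at 264 CPM in control cells against 426 CPM after irradiation, a log2 ratio of 0.69 (0.67 to 0.71) and the highest of the group. Its relative Cks1b had the smallest log2 ratio of the group, 0.32 (0.30 to 0.34), at 212 and 265 CPM, and met the size rule with almost no margin. Ccnb2, cyclin B2, was at 62.2 and 90.7 CPM (0.54, interval 0.51 to 0.58). Cdk1 itself (chr10:69335146-69352938, minus strand) was at 100.1 and 134 CPM (0.42, interval 0.39 to 0.45). Cdc25c, the phosphatase that removes the inhibitory phosphates from Cdk1, was sparse at 6.13 and 7.69 CPM (0.33, interval 0.20 to 0.45). The intervals of Cks1b and Cdc25c spanned the limit of the size rule, so the count of 6 of 6 rests on genes at its edge. Cdca3, a trigger of mitotic entry through destruction of the inhibitor Wee1, was at 66.1 and 93.5 CPM. The intervals of all 6 ratios lay clear of 0.

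Among the 7 mitotic kinases and chromosomal passengers, 4 were higher by the size rule and 3 lay between. Birc5, survivin, the passenger subunit that brings the complex to the centromere, had the highest ratio: 135 CPM in control cells against 210.3 CPM after irradiation, log2 0.64 (0.62 to 0.67). Aurka, the Aurora kinase of the spindle poles, was at 25.5 and 38.1 CPM (0.58, interval 0.52 to 0.64). Aurkb, the Aurora kinase of the passenger complex, was at 51.8 and 71.8 CPM (0.47, interval 0.43 to 0.52). Cdca8, borealin, a further passenger subunit, was at 120.1 and 159 CPM. Tpx2, the activator of Aurka on spindle microtubules, was at 72.9 and 89.0 CPM, log2 0.29, and Nek2, a centrosome kinase, at 9.37 and 11.5 CPM, log2 0.30, so both fell just short of the size rule. Cdca2, a phosphatase-targeting subunit that acts on chromosomes at mitotic exit, was lowest at 23.2 and 24.9 CPM, log2 0.10 (0.04 to 0.17).

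Of the 5 checkpoint and anaphase-promoting complex genes, 3 were higher, 1 was lower and 1 lay between. Cdc20, the activator of the anaphase-promoting complex, was at 59.0 CPM in control cells against 83.0 CPM after irradiation, log2 0.49 (0.45 to 0.53), the highest of the group. Ube2c, the ubiquitin-conjugating enzyme of that complex, was at 158 and 216 CPM (0.46). Bub1, a checkpoint kinase at the kinetochore, was at 19.5 and 27.3 CPM (0.48). Ttk, the Mps1 kinase that starts the checkpoint signal, was at 14.4 and 17.3 CPM (0.26). G2e3, a ubiquitin ligase named for its peak in G2 phase (chr12:51348061-51376986, plus strand), went the other way, with 20.3 CPM in control cells against 14.7 CPM after irradiation, log2 -0.46 (-0.54 to -0.38), the lowest ratio of all 51 genes.

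Of the 6 kinetochore and centromere genes, 1 was higher and 5 lay between in pooled UMIs, a share near the 17.2% of all genes, while 4 of 6 were higher with each cell equal. Cenpa, the histone H3 variant that marks centromeres, was at 121.3 and 156 CPM, log2 0.36 (0.33 to 0.39). Cenpe, a kinetochore motor, was at 45 and 52.3 CPM. Ndc80 and Nuf2, partners in the complex that grips microtubule ends, stood at 23.4 and 26.0 CPM and at 22.6 and 25.1 CPM, with the same log2 ratio of 0.15. Cenpf, a large kinetochore and nuclear matrix protein, was at 87.6 and 83.5 CPM, log2 -0.07. Hjurp, the chaperone that loads Cenpa onto centromeres, was lowest at 96.5 and 80.8 CPM, log2 -0.26 (-0.29 to -0.22), so the variant and its loader differed in opposite directions.

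Of the 13 spindle and microtubule genes, 6 were higher, 1 was lower and 6 lay between. Gtse1, a microtubule-tip protein that also acts on p53 (chr15:85859745-85876573, plus strand), had the highest ratio of all 51 genes, with 5.01 CPM in control cells against 8.94 CPM after irradiation, log2 0.84 (0.70 to 0.97). Tacc3, which stabilises spindle microtubules with Aurka, was at 41.1 and 59.1 CPM (0.52). Tubb4b, a beta tubulin, was at 322 and 446 CPM (0.47). Kif2c, a kinesin that dismantles microtubule ends, was at 14.6 and 19.9 CPM (0.45), Ckap2l at 26.7 and 33.5 CPM (0.33), and Hmmr, a spindle-pole protein and hyaluronan receptor, at 50.9 and 63.8 CPM (0.32). Dlgap5, which stabilises kinetochore fibres, was at 25.6 and 28.6 CPM, and its neighbours in this role Ckap2, at 22.2 and 22.9 CPM, and Kif11, the motor that pushes spindle poles apart, at 62.7 and 63.6 CPM, were close to level. Nusap1, a microtubule bundler, was at 89.9 and 80.7 CPM, Psrc1 at 13.6 and 11.9 CPM, and Ckap5, a microtubule polymerase, at 53.9 and 46.8 CPM, with log2 ratios of -0.16, -0.20 and -0.20. Gas2l3, a linker of actin and microtubules (chr10:89408823-89443967, minus strand), was lowest at 25.7 and 18.8 CPM, log2 -0.45 (-0.53 to -0.38). The entry genes above thus had a narrower range of ratios than the spindle genes, from 0.32 to 0.69 against -0.45 to 0.84. With 6 entry genes against 13 spindle genes, a wider range in the spindle genes is partly given by their number.

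In cytokinesis, the cutting of the cell, 2 of 4 genes were higher, 1 was lower and 1 lay between. Kif20b, a kinesin of the late midzone, was at 40.1 and 52.9 CPM, log2 0.40 (0.35 to 0.45), and Anln, anillin of the contractile ring, at 16.1 and 20.6 CPM (0.35). Ect2, the exchange factor that switches on RhoA at the cell equator, was at 21.3 and 22.7 CPM (0.09). Kif23, the kinesin of the centralspindlin complex that recruits Ect2 (chr9:61915905-61946774, minus strand), was at 62.9 CPM in control cells against 46.3 CPM after irradiation, log2 -0.44 (-0.49 to -0.40).

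The chromosome and nuclear envelope genes, which include the usual proliferation markers, were mostly near level in pooled UMIs. Of 7 chromosome genes 2 were higher and 5 lay between: Hmgb2 was highest at 1541 and 1986 CPM (0.37, interval 0.36 to 0.37), and Anp32e, a histone chaperone, followed at 186 and 238 CPM (0.36). Mki67, the Ki-67 protein that coats mitotic chromosomes (chr7:135689784-135716361, minus strand), was at 157 and 166 CPM, log2 0.08 (0.06 to 0.11). Top2a, the topoisomerase that untangles sister chromosomes (chr11:98992943-99024189, minus strand), was lowest at 348 and 326 CPM, log2 -0.09 (-0.11 to -0.07). With each cell equal, the log2 ratios of these markers were 0.47 for Mki67 and 0.22 for Top2a, so the direction of Top2a depended on the weighting of cells. The condensin subunits Smc4 (181 and 195 CPM) and Ncapd2 (39.1 and 42.4 CPM) had log2 ratios of 0.11 and 0.12, and Cbx5, heterochromatin protein HP1 alpha, was at 127 and 126 CPM. Of 3 nuclear envelope genes, Rangap1, the activator of the Ran transport GTPase, was higher at 65.9 and 85.0 CPM (0.37), while Lbr, the lamin B receptor (111 and 114 CPM), and Tmpo, a lamina-associated protein (199 and 196 CPM), had log2 ratios of 0.04 and -0.02. Hmgb2 and Tubb4b belong to families with near-identical copies, and how reads shared between copies were counted is not given in the sources used here.

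More cells of the irradiated library held many mitotic UMIs. After thinning to 5000 UMIs per cell, a data-driven limit (Otsu's method on the log2 sum, both libraries weighted equally) fell at 19 UMIs of the 51 genes. At or above it were 32.7% (31.6 to 33.8) of the 7124 cells thinned from control, against 63.3% (62.0 to 64.6) of the 5069 irradiated ones, a difference of 30.6 percentage points. The limit cuts a continuous range rather than a gap: 403 control and 501 irradiated cells lay within 2 UMIs of it, and the class above it is a range of a score, not a cell type. Without thinning, 68.6% of control and 92.8% of irradiated cells held at least 19 such UMIs, at unequal depth. Without the 10 genes also used in interphase and with its own limit of 7 UMIs, the difference was 29.5 points.

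The added cells sat in the middle of the range. Cells with 0 to 9 mitotic UMIs were 44.6% of control and 14.9% of irradiated cells. Cells with 19 to 29 UMIs were 9.60% and 20.7%, those with 30 to 44 were 7.22% and 19.1%, those with 45 to 59 were 5.57% and 10.6%, and those with 60 to 79 were 5.56% and 8.42%. At 80 UMIs or more, the libraries did not differ beyond counting error: 4.76% (4.28 to 5.28) in control against 4.56% (4.0 to 5.17) in irradiated cells. The median cell held 11 mitotic UMIs in control and 25 in the irradiated library, while the 95th percentile was 78 in both.

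**Figure D2:**
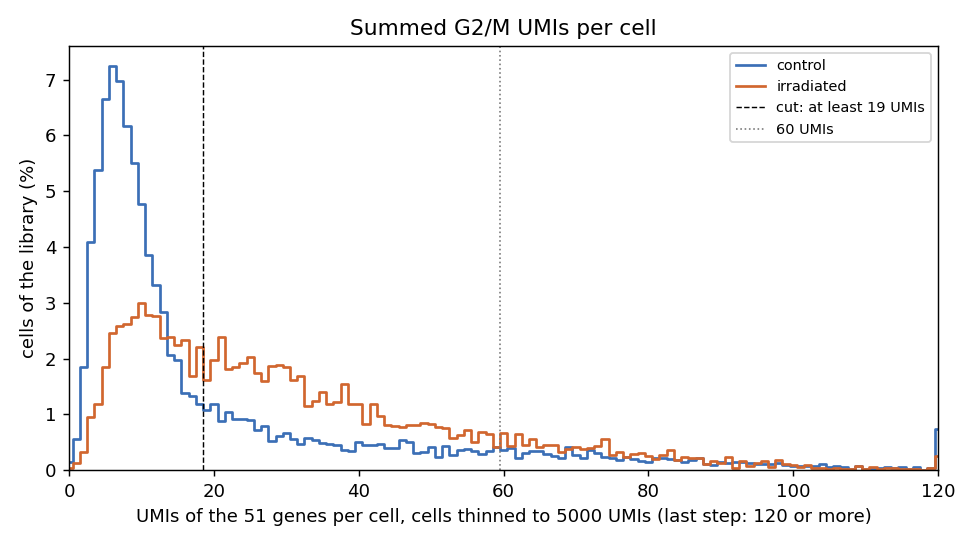
Share of each library's cells (vertical axis, %) at each summed count of UMIs of the 51 genes (horizontal axis), in cells thinned to 5000 UMIs. The control curve peaks below 10 UMIs, the irradiated curve is spread over 10 to 60 UMIs, and the curves come together from 80 UMIs on.

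The mean was 21.9 mitotic UMIs per control cell and 31.3 per irradiated cell. Cells in the range held a mean of 50.1 mitotic UMIs in control and 43.1 in irradiated cells, and cells out of it 8.23 and 10.7. Since the limit is set on this same sum, a general rise in level would also carry cells across it, so the share of cells and the level per cell cannot be told apart from these values. Depth moved with the range: in-range cells had a median of 25441 UMIs in control and 36553 in irradiated cells before thinning, and out-of-range cells 13470.5 and 19611. S phase UMIs per cell were 20.3 in control and 18.6 in irradiated cells within the range, and 10.6 and 13.8 outside it. The part of cell size or depth in the share was not tested.

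Gene by gene, more irradiated than control cells held at least 1 UMI of 47 of the 51 genes in thinned cells, and for 45 of them the intervals of the shares lay apart. The exceptions were G2e3, Hjurp, Gas2l3 and Kif23, and of these all but G2e3 had a lower share with intervals apart. Birc5 was found in 23.2% (22.3 to 24.2) of control cells, against 45.8% (44.5 to 47.2) after irradiation. Ube2c was found in 16.1% and 33.1%, Ccnb2 in 13.9% and 27.5%, Cdk1 in 23.0% and 36.7%, Cdc20 in 14.3% and 24.2%, Mki67 in 24.0% and 38.4%, and Top2a in 40.5% and 55.6%. The mean count in cells with a UMI was lower or level for most: 11 of 51 genes had more UMIs per positive cell in the irradiated library, among them Hmgb2 (6.78 and 9.42) and Cks2 (2.12 and 2.64), whereas Top2a went from 3.09 to 2.61 and Ube2c from 3.28 to 2.75. Without thinning, at the unequal depth of the libraries, the share was higher in irradiated cells for all 51, with 36.2% and 68.8% of cells holding Mki67. No such counts over all genes are given here, so how far those of the members exceed a general difference in detection was not tested.

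Each gene was also read in cells whose other 50 genes summed to under 10 UMIs, which does not measure free RNA. Because those genes vary with it, a low share was partly set by choosing such cells. Birc5 was found in 1.35% of such control and 3.93% of such irradiated cells, Ube2c in 2.01% and 7.43%, Ccnb2 in 1.66% and 6.47%, Mki67 in 2.13% and 6.63%, and Cdk1 in 4.18% and 6.36%. Cdc20 was found in 3.61% and 3.81%, and Top2a in 12.9% and 16.3%. The median depth before thinning of cells with 0 to 9 mitotic UMIs was 12212 in control and 16151 in irradiated cells. For these 7 genes the share over all cells was well above that of the low cells of the same library. For Hmgb2 it was not, since 85.2% and 92.2% of the low cells held it, so its share of cells does not separate dividing cells.

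Within cells that were strongly positive, most genes of the engine were level between libraries, and the genes that differed were mainly lower after irradiation. Each gene was read in cells chosen by the other 50 genes, so that it did not choose its own cells; since those cells have like sums of the others, a level here is relative to the rest of the group. With a limit set by the same method on the sum of the other 50 genes (19 UMIs for most genes, 18 for 11 of them and 14 for Hmgb2), 19 of 51 genes were lower in irradiated cells, 0 were higher and 32 lay between, while 26.1% of all genes were lower and 14.4% higher in cells at or above 19 UMIs; there the irradiated cells also held fewer mitotic UMIs in all, as given above. In cells below the limit 39 of the 51 reached a mean of 5 CPM, of which 23 were higher and 4 lower, beside 15.7% higher and 23.6% lower over all genes. Irradiated cells out of the range, however, held more mitotic UMIs in all than control ones, a mean of 10.7 against 8.23. Higher members are thus partly given by the choice of these cells, and how many of the 23 was not tested. Some of the 23, Ube2c and Aurkb among them, were under that minimum in control cells. In cells with at least 60 UMIs of the others, between 242 and 734 cells per library and gene, 8 genes were lower, 1 was higher and 42 lay between, beside 22.6% lower and 16.7% higher over all genes, so the members' count of lower genes there did not exceed the background.

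In those strong cells Cdk1 stood at 298 CPM in control cells against 285 CPM after irradiation, a log2 ratio of -0.06 (-0.20 to 0.07). Ccnb2 stood at 258 and 248 CPM (-0.06, interval -0.20 to 0.08), Cdc20 at 246 and 238 CPM (-0.05, interval -0.19 to 0.09), and Ube2c at 803 and 810.2 CPM (0.01, interval -0.07 to 0.09). Aurka at 99.6 and 97.2 CPM, Aurkb at 147 and 149 CPM, and Birc5 at 466 CPM in both had intervals that included 0, and so did Cenpa at 491 and 461 CPM. Cks2 kept a difference clear of 0, with 767 and 893 CPM (0.22, interval 0.14 to 0.30), short of the size rule. Ckap2l, a spindle protein of the Ckap2 family, was the single gene above it, with 92.3 and 116 CPM (0.33, interval 0.11 to 0.55).

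The 8 lower genes in strong cells came from 5 roles, with 3 spindle genes and the cytokinesis pair Kif23 and Ect2 among them. Gas2l3 stood at 87.4 CPM in control cells against 51.9 CPM after irradiation, log2 -0.75 (-1.03 to -0.48). Ckap2 was at 85.0 and 55.3 CPM (-0.62, interval -0.89 to -0.35). The cytokinesis partners Ect2, at 74.2 and 49.0 CPM, and Kif23, at 195 and 132 CPM, had log2 ratios of -0.60 (-0.89 to -0.31) and -0.56 (-0.74 to -0.39). Cdca2 was at 79.5 and 56.4 CPM (-0.49), Cenpf at 418 and 307 CPM (-0.44), Ckap5 at 156 and 117 CPM (-0.42), and Top2a at 1046 and 805 CPM (-0.38, interval -0.45 to -0.30). Mki67 was at 551 and 474 CPM (-0.22, interval -0.32 to -0.12), below control but short of the size rule.

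**Figure D3:**
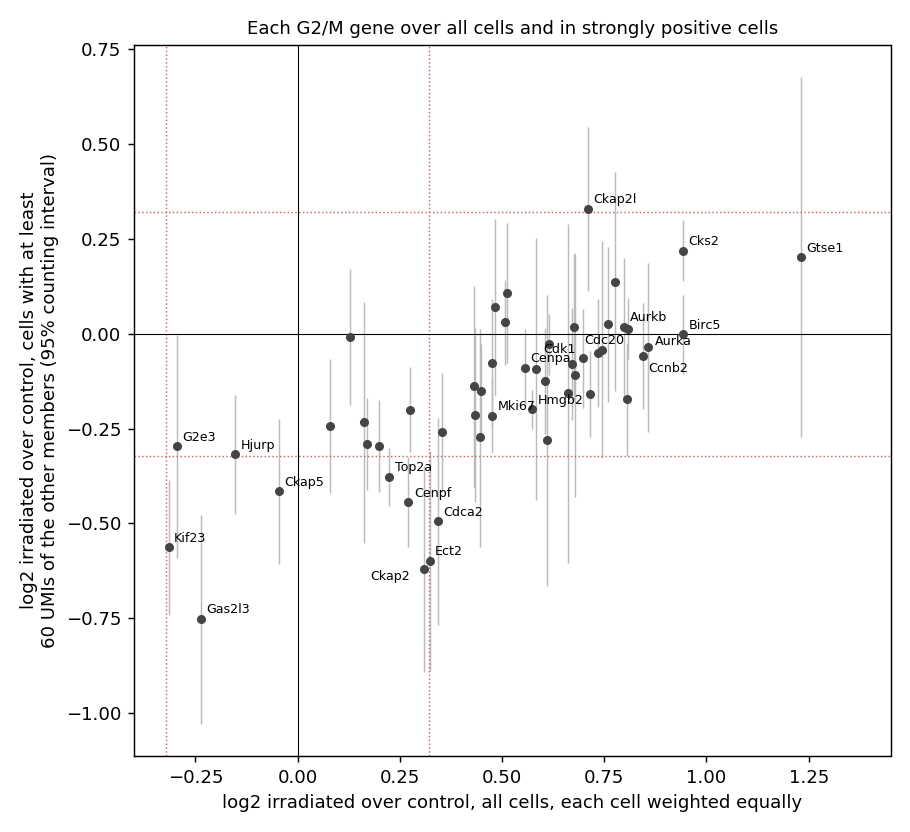
Log2 ratio of irradiated over control for each gene over all cells with each cell weighted equally (horizontal axis) against its log2 ratio in cells with at least 60 UMIs of the other 50 genes (vertical axis, bars are 95% counting intervals). Dotted lines mark the size rule at log2 0.32 and -0.32; Cks2 and Birc5 lie near 0.94 on the horizontal axis and at 0.22 and 0.00 on the vertical, while Gas2l3, Ckap2, Ect2 and Kif23 lie below -0.5.

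Transcript length moved with these ratios. Over the 51 genes the pooled log2 ratio and the length of the longest protein-coding transcript (GENCODE M21) had a Spearman correlation of -0.60, and over 8862 genes -0.32; genes of 1 library pair are not independent, and all share its depth. Of 12 members under 2000 bases, 11 were higher over all cells and 0 lower, at a median log2 of 0.47, beside 0.10 for all genes of that length. Of those 2414 genes, 683 were higher and 427 lower. Of 18 members of at least 4000 bases, 3 were higher and 2 lower, at a median of 0.08, beside -0.23 for all genes of that length. Of those 2929 genes, 237 were higher and 1200 lower. In strong cells 5 of the 18 long members and 0 of the 12 short ones were lower, beside 22.6% of all genes of any length. The part of length in the order of the members was not tested.

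**Figure D4:**
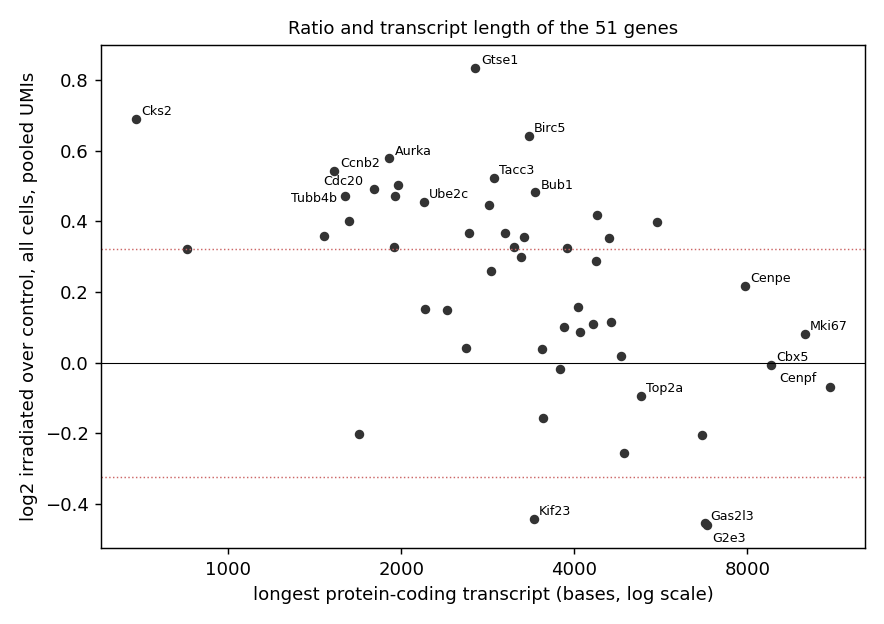
Pooled log2 ratio of irradiated over control (vertical axis) against the length of the longest protein-coding transcript in bases (horizontal log axis) for the 51 genes, with dotted lines at the size rule of log2 0.32 and -0.32. Short transcripts such as Cks2 and Ccnb2 lie high, and long ones such as Cenpf, Gas2l3 and G2e3 lie near or below 0.

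The genes were split by the CHR letters. The 34 genes with CHR letters had a median pooled log2 ratio of 0.33, from -0.45 to 0.58, and the 11 without them 0.22, from -0.46 to 0.84. Both Gtse1, the highest, and G2e3, the lowest, were among those without CHR letters in this window, and Gas2l3, whose stretch above carries TTCGAA next to a CCAAT box, was among the lower genes. Of the 34 genes with CHR letters 19 were higher and 2 lower, and of the 11 without them 4 were higher and 1 lower. Over all genes 17.2% were higher and 28.3% lower, and these shares were not split by CHR letters. These are descriptions of 45 genes, and no effect of the element was tested.

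Progenitor classes differed in how many of their cells were in the mitotic range. Classes were set from per-cell marker scores, so each is a range of a score and is named only by likeness. They were compared where each library had at least 100 cells and at least 3 of a class's markers were among its 15 leading genes, a condition chosen after seeing the data. HSC-like cells, led by Procr, Mecom, Mllt3 and Hlf, were 1206 control and 338 irradiated cells, of which 80 and 38 lay within 0.05 of a class limit. Neutrophil-primed-like cells, led by Cebpe, Elane and Ms4a3, were 123 and 1109 cells, or 1.71% and 21.6% of their libraries, with 17 and 51 near a limit. Lymphoid-primed-like cells (Dntt, Il7r, Notch1) were 1825 and 406, megakaryocyte-primed-like cells (Pf4, Gp5, Itga2b) 366 and 350, monocyte-primed-like cells (Ly86, F13a1, Csf1r) 426 and 663, dendritic-like cells (H2-Eb1, Cd74, Xcr1) 437 and 192, and mast cell and basophil-like cells (Prss34, Ms4a2, Mcpt8) 125 and 258. A further 1712 control and 992 irradiated cells took no class.

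The classes were not free of each other's genes. In monocyte-primed-like cells the neutrophil-primed markers had a median summed level of 2208 CPM in control cells against 6534 CPM after irradiation. In dendritic-like cells the median summed level of HSC markers was 214 and 99 CPM, and that of lymphoid-primed markers 389 and 154 CPM. In neutrophil-primed-like cells the class's own markers differed, at 7189 and 13103 CPM. What part these differences have in the class values was not tested.

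In all 7 compared classes the share of cells in the mitotic range was larger in the irradiated library. In HSC-like cells it was 17.9% (15.8 to 20.2) in control and 32.2% (27.2 to 37.5) in irradiated cells. In lymphoid-primed-like cells it was 31.0% (28.8 to 33.1) and 53.6% (48.6 to 58.5), in megakaryocyte-primed-like cells 33.5% (28.7 to 38.6) and 57.3% (52.0 to 62.6), and in dendritic-like cells 19.2% (15.6 to 23.2) and 40.3% (33.2 to 47.7). The classes that were high in control differed too: neutrophil-primed-like cells went from 63.9% (54.7 to 72.4) to 78.5% (76.0 to 80.9), monocyte-primed-like cells from 58.9% (54.1 to 63.6) to 77.2% (73.8 to 80.3), and mast cell and basophil-like cells from 44.8% (35.9 to 54.0) to 65.0% (58.7 to 70.8). The intervals of the libraries lay apart in each class. B lineage-like cells, not compared because the irradiated library had 36 of them against 146 in control, stood at 80.3% (72.5 to 86.7) and 68.6% (50.7 to 83.1), with overlapping intervals, and at a summed log2 ratio of -0.26. Erythroid-primed-like cells, not compared because control had 46 of them against 468 irradiated, stood at 54.8% (38.7 to 70.2) and 74.7% (70.4 to 78.6), at a summed log2 ratio of 0.16. Among the 7 compared classes of the irradiated library, HSC-like cells had the lowest share and neutrophil-primed-like cells the highest. The interval of the first overlapped that of dendritic-like cells, and that of the second overlapped those of monocyte-primed-like and the uncompared erythroid-primed-like and B lineage-like cells.

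**Figure D5:**
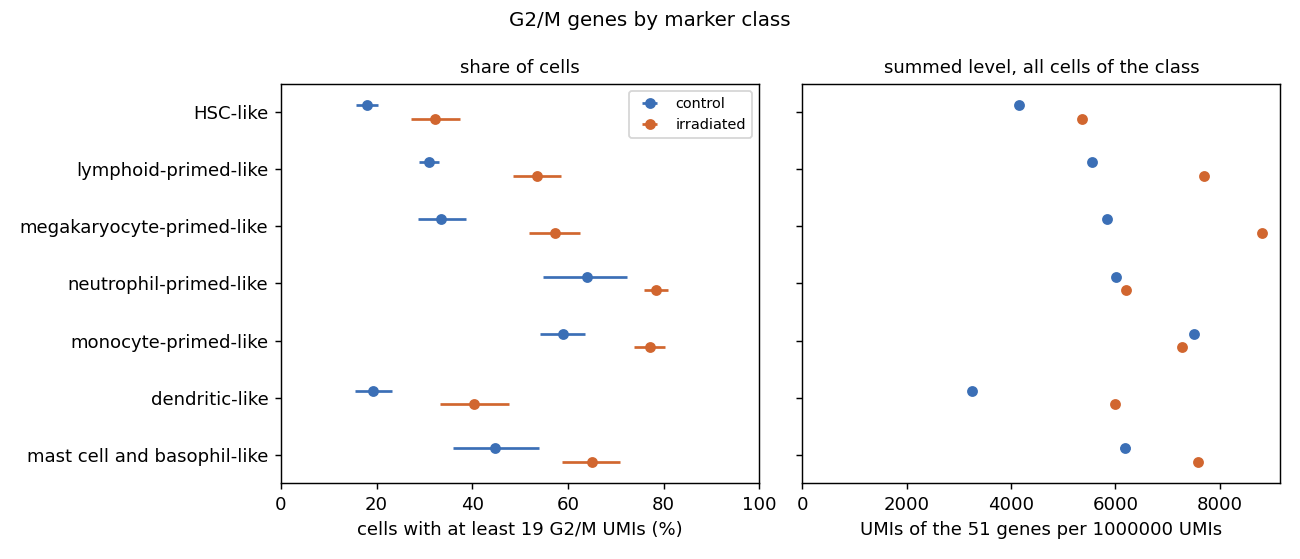
Left, share of cells with at least 19 UMIs of the 51 genes (%) in 7 marker classes, control and irradiated, with 95% binomial intervals. Right, summed level of the 51 genes in UMIs per 1000000 UMIs; the 7 irradiated shares all lie to the right, whereas the summed levels of neutrophil- and monocyte-primed-like cells nearly coincide.

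The summed level did not follow the share in every class. HSC-like cells held 4162 CPM in control and 5367 CPM in the irradiated library (log2 0.37, interval 0.35 to 0.39). Lymphoid-primed-like cells held 5546 and 7699 CPM (0.47), while megakaryocyte-primed-like cells held 5830 and 8815 CPM (0.60). Dendritic-like cells had 3243 and 5995 CPM, log2 0.89 (0.86 to 0.91), and mast cell and basophil-like cells 6180 and 7580 CPM (0.29). With class scores taken from thinned cells, these log2 ratios were 0.42 and 0.10, and that of HSC-like cells was 0.68. In contrast, neutrophil-primed-like cells had 6008 and 6198 CPM (0.045, interval 0.027 to 0.063) and monocyte-primed-like cells 7510 and 7274 CPM (-0.046, interval -0.057 to -0.035). Over all thinned monocyte-primed-like cells the mean was 32.4 mitotic UMIs in control and 34.4 in irradiated cells. The direction in that class thus depended on the weighting of cells. In monocyte-primed-like cells in the range, the mean was 47.3 mitotic UMIs per control cell and 40.9 per irradiated cell, and in megakaryocyte-primed-like cells 50.8 and 59.4.

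Single genes split along the same lines. In HSC-like cells 26 of 49 members at a mean of at least 5 CPM were higher and 2 lower, beside 12.4% of all genes higher and 21.7% lower. In lymphoid-primed-like cells 41 of 51 were higher and 0 lower (12.9% and 20.6% of all genes), and in megakaryocyte-primed-like cells also 41 and 0 (13.4% and 22.4%). In dendritic-like cells 45 of 49 were higher and 0 lower (21% and 27%), and in mast cell and basophil-like cells 23 of 51 and 0 (14.3% and 19.9%). In neutrophil-primed-like cells 3 of 51 were higher and 8 lower (12.5% and 14.2% of all genes), and in monocyte-primed-like cells 1 was higher and 10 lower (9.61% and 15.2%). In these classes the share of members higher was below that of all genes. Gtse1 was the gene higher in all 7 classes, though under 5 CPM on average in HSC-like and dendritic-like cells, from a log2 ratio of 0.46 in monocyte-primed-like to 1.91 in dendritic-like cells. Ube2c ranged from -0.30 in neutrophil-primed-like to 2.59 in dendritic-like cells. Ccnb2 was at 0.66 in HSC-like, 1.01 in megakaryocyte-primed-like and 0.05 in neutrophil-primed-like cells. In HSC-like cells the 2 lower genes were G2e3 (-0.38) and Kif23 (-0.37), and Bub1 (0.97) and Kif2c (0.87) were the highest of the 49. Differences between classes were not tested.

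The mix of classes also differed between libraries. With control shares in each class and the irradiated mix of classes, 44.7% of cells would be in the mitotic range, and with irradiated shares and the control mix 52.0%, beside the measured 32.7% and 63.3%. Over all cells the neutrophil-primed marker list, all 7 genes detected, summed to 1537 CPM in control cells against 6496 CPM after irradiation, the HSC list, also 7 of 7, to 227 and 80.3 CPM, and the erythroid-primed list, 6 of 6, to 52.4 and 301 CPM. Fewer cells of a type and less RNA per cell cannot be told apart in such sums.

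Other genes of the same machinery were counted in the same way, beside the 17.2% of all genes that were higher in pooled UMIs. Of 10 further mitotic cyclins and kinases 3 were higher and 0 lower: Ccna2, cyclin A2, at 45.5 and 73.0 CPM (log2 0.68), Plk1, the Polo kinase, at 22.9 and 36.4 CPM (0.67), and Ccnb1, cyclin B1, at 43.5 and 64.4 CPM (0.56). The lowest of them, Wee1, the kinase that restrains Cdk1, was at 42.1 and 34.6 CPM (-0.29). Of 12 further kinetochore genes 2 were higher, led by Cenpw at 73.0 and 131 CPM (0.84), with Zwint lowest at 64.9 and 62.8 CPM. Of 8 further checkpoint genes 2 were higher, led by Mad2l1 at 38.6 and 52.9 CPM (0.45), with Cdc27 lowest at 21.9 and 19.9 CPM. Of 15 further spindle and cytokinesis genes measured 1 was higher, Kif20a at 15.7 and 20.7 CPM (0.40), with Kif18a lowest at 18 and 14.9 CPM. Of 6 condensin and cohesin genes 1 was higher, Cdca5 at 24.6 and 31.9 CPM (0.37), with Smc2 lowest at 137 and 142 CPM. None of these 5 lists had a gene lower by the size rule. With each cell equal, the counts of higher genes were 7 of 10 cyclins and kinases, 10 of 12 kinetochore genes, 5 of 8 checkpoint genes, 11 of 15 spindle and cytokinesis genes and 3 of 6 condensin and cohesin genes, with 0 lower, beside 17.9% of all genes.

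The transcription factors of mitotic genes were divided. Of 9 measured, 2 were higher and 1 lower in pooled UMIs, beside 17.2% and 28.3% of all genes. With each cell equal, 4 were higher and 1 lower, beside 17.9% and 27.2% of all genes. Mybl2, B-Myb, was at 13.8 CPM in control cells against 22.8 CPM after irradiation (0.72, interval 0.64 to 0.80), and E2f8, a repressor of the E2F family, was at 21.8 and 33.1 CPM (0.60). Foxm1 was at 10.5 and 12 CPM (0.19, interval 0.09 to 0.29), and its log2 ratio was 0.50 with each cell equal. Nfya, a subunit of the factor that reads the CCAAT box, was lowest at 45.7 and 34.2 CPM (-0.42). Of the 38 S phase genes 11 were higher and 0 lower in pooled UMIs at a median of 0.15, led by Rrm2, the ribonucleotide reductase subunit, at 49.1 and 114 CPM (1.22), with Dtl lowest at 103 and 86.5 CPM. With each cell equal, 17 of the 38 were higher and 0 lower.

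Genes outside the list were ranked by how closely their counts per cell followed the summed mitotic UMIs. The first 10, by the lower of the libraries' Pearson correlations over thinned cells, were Tubb5 (0.66 in control, 0.59 in irradiated cells), Tuba1b (0.65 and 0.57), Hist1h2ap (0.68 and 0.57), H2afz (0.69 and 0.56), H2afx (0.67 and 0.56), Hist1h2ae, Hmgb1, Prc1, Nucks1 and Ube2s (0.48 and 0.46). Within the list, the correlation of a gene with the sum of the other 50 was highest for Hmgb2 (0.77 and 0.75) and lowest for Lbr (0.18 and 0.14) in both libraries, with Top2a at 0.74 and 0.60. These describe 7124 control and 5069 irradiated cells that share their library, and sparse genes have low values by their counts alone. Hist1h2ap, a clustered histone gene, itself differed, with 603 and 1135 CPM, log2 0.91, while Tubb5 was at 1188 and 1114 CPM, log2 -0.09.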

How the data were processed

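The members and gene lists were chosen with earlier results of these data known. The deposited values are raw UMI counts per gene and barcode, in a matrix for each library made by the authors. The submitters' processing notes name Cell Ranger 2.1.1 and mm10, while the matrix headers give software 3.1.0; the 10x 3′ v2 kit is given per the labels' protocols. Barcodes were kept with at least 1000 UMIs, 500 genes and at most 10% mitochondrial UMIs. Scrublet, at an expected rate of 0.06, marked 2 control and 16 irradiated cells, under 0.5% of each library, so it did not work and no doublet was removed; leaving out the 6% of cells with the highest scores is an alternative.

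UMIs were summed per library and divided by its total. The ratio of irradiated over control CPM has an exact Clopper-Pearson interval conditional on the total, checked on simulated data, and shares of cells have exact Clopper-Pearson intervals. UMIs correct for PCR copies, but counting intervals do not cover variation between animals. Those of UMI levels and ratios treat each UMI as a separate draw, so they do not cover variation between cells either. With 1 library per group no test was made; higher and lower mean a log2 ratio of at least 0.32 either way at a mean of at least 5 CPM. Classes need a mean marker z score (capped at 10) of at least 0.25 with a lead of 0.1. All members may be named; given in full were the highest and lowest ratio of each role and Mki67, Top2a, Cdk1, Ccnb2, Cdc20, Aurka, Aurkb and Cenpa, and of other lists the highest and lowest with Plk1, Ccnb1, Ccna2 and Foxm1. Ratios in cells with at least 60 UMIs of the other members were added after seeing the data. Alternatives were median-ratio scaling, each cell equal, thinning, all barcodes, 5% mitochondrial UMIs, doublet scores, CPM minima, other limits on the summed UMIs and other class scores. Python 3.11.15, numpy 2.4.6, scipy 1.17.1 and scanpy 1.11.5 were used.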

Additional observations from a re-analysis of the deposited data

Results flagged for a closer look

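In pooled UMIs, the summed mitotic level went against the other compared classes in monocyte-primed-like cells, where the log2 ratio of irradiated over control was -0.046. In thinned cells the mean of this class was 32.4 mitotic UMIs in control and 34.4 in irradiated cells. The sign of its sum thus depended on the weighting of cells. Mki67 had a log2 ratio of -0.42 in monocyte-primed-like and 1.23 in dendritic-like cells. Top2a had -0.43 in monocyte-primed-like and 0.70 in dendritic-like cells. These stand out because the single library of each group moved in opposite directions in different classes, and the difference between classes was not tested.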

How the results depend on the processing

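No paired analysis was possible because each group has 1 library. None of the 51 members changed sign as a called value under the 6 alternatives run on their ratios. The 40 members above 0 became 34 at 5% mitochondrial UMIs and 46 or 47 with other weighting, thinning or scaling, Top2a among them with each cell equal. The summed log2 ratio of 0.29 was 0.50 with median-ratio scaling, 0.51 with each cell equal, 0.51 in thinned cells and 0.18 at 5% mitochondrial UMIs. Median-ratio scaling shifted the median log2 ratio of all genes by 0.21, and members higher and lower there were 34 and 0. The 3 lower members became 0 with each cell equal and 1 in thinned cells. The 25 higher members became 11 at 5% mitochondrial UMIs. No share of all genes is given for that limit, for thinning or for median-ratio scaling. The difference of 30.6 points in the share of cells became 20.8 with a limit 1.5 times higher, 33.1 with a limit 1.5 times lower and 25.6 at 5% mitochondrial UMIs. In cells chosen by the other members, 19 lower and 0 higher became 8 and 1 at 60 UMIs.

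By class, a minimum score of 0.5 with a lead of 0.25 moved the summed log2 ratio to 0.50 in lymphoid-primed-like, 0.64 in megakaryocyte-primed-like, 0.16 in neutrophil-primed-like, -0.081 in monocyte-primed-like and 0.17 in mast cell and basophil-like cells. Scores from thinned cells gave 0.68 in HSC-like, 0.39 in lymphoid-primed-like, 0.42 in dendritic-like and 0.10 in mast cell and basophil-like cells. Without the highest doublet scores it was 0.42 in HSC-like, 0.49 in lymphoid-primed-like, 0.67 in megakaryocyte-primed-like and 0.84 in dendritic-like cells. The causes were not tested. All class values kept their sign under these 3 alternatives. The mean per thinned monocyte-primed-like cell, however, was higher in the irradiated library, against the sign of the pooled sum of that class. Sparse members such as Gtse1 and Cdc25c rest on few UMIs per cell, and the single library per group limits every comparison.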
